A study of Homo sapiens with 4 samples.

Results

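The ATF4-CHOP group comprised 10 stress-response genes, 4 regulators (*ATF4*, *ATF3*, *DDIT3* and *ATF5*) and 6 effectors (*TRIB3*, *CHAC1*, *SESN2*, *DDIT4*, *PPP1R15A* and *VLDLR*). They were found by their symbols in the array's own annotation, which lists 20481 symbols, and had 12 of its 33096 gene probes. The genes were chosen by their values in the same contrast that is described here, *SOX2* knockdown against mock, so their changes are given as a description with no test. Expression was measured in LN229, an established human glioma cell line grown in DMEM medium. The mock group received a non-targeting control siRNA and the *SOX2* knockdown group a transient siRNA against *SOX2*, which encodes a transcription factor of neural and embryonic stem cells. Each group had 2 arrays, described in the study's methods as biological replicates from separate transfections. Total RNA was labelled with biotin and hybridised to a 1-colour chemiluminescent oligonucleotide array.

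ATF4 is a basic leucine zipper (bZIP) transcription factor at the centre of the integrated stress response, in which kinases that sense amino acid shortage, unfolded protein in the endoplasmic reticulum (ER), double-stranded RNA or heme shortage phosphorylate the translation factor eIF2. General protein synthesis is then reduced, while translation of the *ATF4* and *ATF5* messages is favoured through short reading frames upstream of their coding sequence, so the transcript level measured on an array is not a measure of these proteins. ATF4 binds composite sites with C/EBP family partners and drives *DDIT3*, which encodes the factor CHOP, and *ATF3*, and these factors together control genes of amino acid supply, redox balance, mTORC1 restraint and recovery of translation.

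Each deposited signal was divided by the 75th percentile of the probes on its array, so a value of 1 is a signal at that percentile. Probes whose signal-to-noise ratio (S/N) exceeded 3 in both replicates of either group were kept, 21256 in all. All 12 member probes had an S/N over 3 on all 4 arrays, between 7.92 and 126.56. The share of probes with an S/N over 3 was between 63.5% and 68.9% per array, and the kept log2 signals correlated with r = 0.986 between the mock arrays and r = 0.991 between the knockdown arrays, across probes. *SOX2* itself read 0.467 and 0.701 in mock against 0.209 and 0.149 after knockdown, a log2 difference of -1.69 (SE 0.28, limma, Benjamini-Hochberg adjusted p = 0.117), and its S/N on the knockdown arrays was 3.17 and 3.06. Each SE here and below is the moderated standard error of limma, which borrows variance from all kept probes and is not that of the replicates alone. SW620, a line from a colon tumour, stands in the treatment protocol of the samples, while their titles, descriptions and cell line field give LN229. Of 7 markers of mesenchymal-like glioblastoma lines, 6 had an S/N over 3 on all 4 arrays, *FN1* being the other, and their summed signal was 151 to 200. Of 9 colon epithelial markers only *VIL1* did, *CDH1*, *CDH17* and *KRT20* had such an S/N on none, and their summed signal was 0.263 to 0.326.

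Because ATF4 and its partners act through short DNA sites, the 250 bases upstream of each RefSeq transcription start (GRCh38.p14) were searched on both strands for 3 motifs. All 10 members matched a RefSeq gene and had 17 such windows. The C/EBP-ATF response element, TGATGNAA, was found upstream of 2 of the 10 members, *ATF3* and *CHAC1*. By gene, 1061 of 27305 RefSeq symbols have it in a window, and by window 3.14% of the 35116 of this length hold it. The full cAMP response element, TGACGTCA, which ATF family dimers bind, was found upstream of 1 member, *PPP1R15A*. It was found for 555 of the 27305 symbols, with 1.65% of windows holding it. Neither motif overlapped the other in these windows. The ER stress response element, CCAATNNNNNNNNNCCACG, was found upstream of none of the 10 members. It was found for 25 of the 27305 symbols, and 0.074% of windows hold it. The windows with a match are shown 5′ to 3′ in the direction of the gene with the matched letters in capitals, because they place the motif relative to genes whose signals follow.
*ATF3*, chr1:212565157-212565406, plus strand, match 191 bases before the start of 1 of its 2 transcription starts: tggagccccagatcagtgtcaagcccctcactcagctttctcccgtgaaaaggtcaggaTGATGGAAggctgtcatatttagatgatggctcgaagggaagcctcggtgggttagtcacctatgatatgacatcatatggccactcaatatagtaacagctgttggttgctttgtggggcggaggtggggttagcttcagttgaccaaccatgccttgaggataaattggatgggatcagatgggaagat
*CHAC1*, chr15:40953221-40953470, plus strand, match to the reverse complement 209 bases before the start: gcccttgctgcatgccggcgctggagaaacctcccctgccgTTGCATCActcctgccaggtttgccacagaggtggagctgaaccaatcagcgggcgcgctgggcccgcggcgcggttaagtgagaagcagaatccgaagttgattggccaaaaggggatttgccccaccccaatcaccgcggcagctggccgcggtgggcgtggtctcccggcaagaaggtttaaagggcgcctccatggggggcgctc
*PPP1R15A*, chr19:48872171-48872420, plus strand, match 58 bases before the start: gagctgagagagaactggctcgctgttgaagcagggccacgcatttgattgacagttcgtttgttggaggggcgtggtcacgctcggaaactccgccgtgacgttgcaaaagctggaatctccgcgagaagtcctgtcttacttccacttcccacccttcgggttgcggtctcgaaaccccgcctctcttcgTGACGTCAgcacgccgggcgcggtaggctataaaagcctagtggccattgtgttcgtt
A match in these letters is a description of the window, and binding was not measured.

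Across the members, 6 of 12 probes, for 6 of the 10 genes, were over 2-fold higher on the knockdown arrays by the ratio of group means (*SESN2*, *CHAC1*, *TRIB3*, *DDIT3*, *ATF3* and *DDIT4*), and none was over 2-fold lower. Among all kept probes 1.57% were over 2-fold higher and 1.04% over 2-fold lower. For 11 of 12 member probes both knockdown arrays lay above both mock arrays, against 21.2% of all kept probes. The genes were picked on this contrast, so these shares are set side by side and nothing is read from them. In a culture measured in bulk, a change in the share of cells that express a gene and a change in RNA per cell cannot be told apart.

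**Figure D1:**
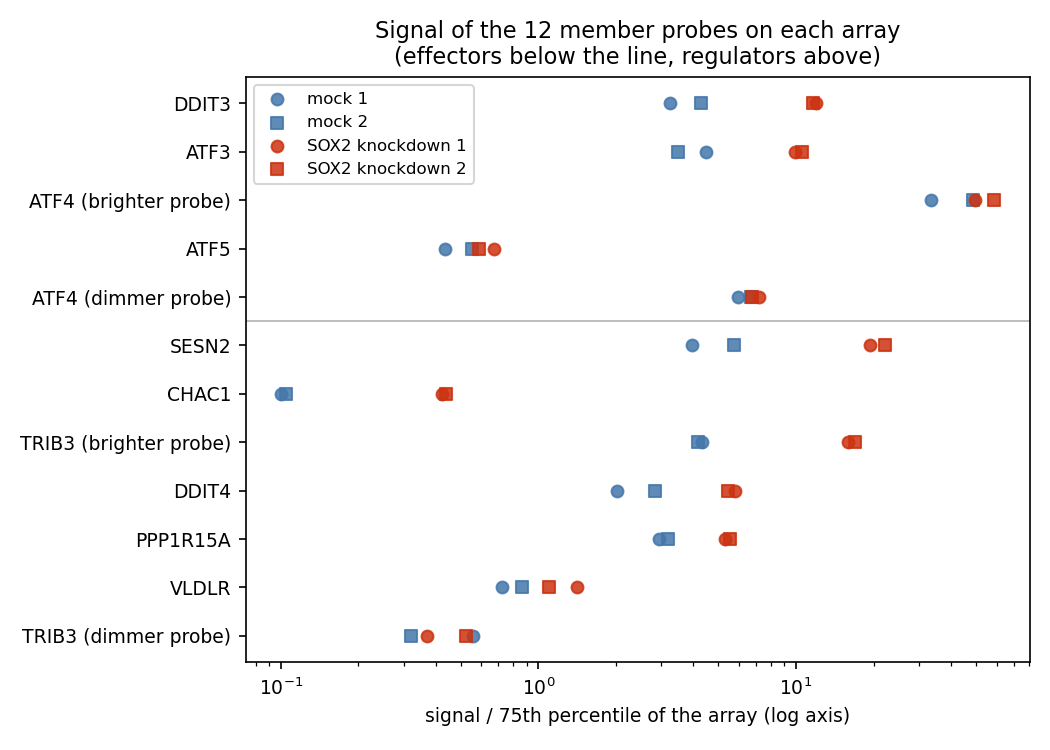
Signal of the 12 member probes on each array, divided by the 75th percentile of the array, on a log axis. Blue points are the mock arrays and red points the *SOX2* knockdown arrays, circles replicate 1 and squares replicate 2. The colours are widely apart for *SESN2*, *CHAC1*, the brighter *TRIB3* probe, *DDIT3* and *ATF3*, nearly touch for both *ATF4* probes and *ATF5*, and overlap for the dimmer *TRIB3* probe.

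The regulators divided into a pair that differed by over 2-fold and a pair that did not. *DDIT3* (probe 163509), which encodes CHOP, the factor of the pathway linked to cell death under prolonged stress, read 3.26 and 4.27 in mock and 11.9 and 11.6 after knockdown. The group means were 3.76 ± 0.715 and 11.8 ± 0.200 (SD, n = 2), a ratio of 3.13 and a log2 difference of 1.66 (SE 0.18). The lower knockdown array was 1.45 log2 units above the higher mock array, and *DDIT3* was the largest of the regulators in log2 difference, at rank 90 of the 21256 kept probes.

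*ATF3* (probe 185687), an immediate stress-induced bZIP factor that mostly represses its targets, read 4.48 and 3.49 in mock and 9.88 and 10.5 after knockdown. Its means were 3.99 ± 0.697 and 10.2 ± 0.445 (SD, n = 2), with a ratio of 2.56 and a log2 difference of 1.36 (SE 0.17). Here, too, the groups were well separated, with 1.14 log2 units between the nearest arrays. The spot carried a scanner flag of 64 on knockdown array 2, the meaning of which is not given in the sources used here.

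*ATF4* was read by 2 probes, and the separation was narrow on both. The brighter probe (183867) gave 33.4 and 48.6 in mock and 49.5 and 58.7 after knockdown, with means of 41.0 ± 10.8 and 54.1 ± 6.52 (SD, n = 2), a ratio of 1.32 and a log2 difference of 0.42 (SE 0.23). Mock array 2 lay just 0.03 log2 units below knockdown array 1, and the difference was 0.15 without mock array 1 and 0.69 without mock array 2. The dimmer probe (166946) gave 5.96 and 6.69 in mock and 7.17 and 6.75 after knockdown, a ratio of 1.10 and a log2 difference of 0.14 (SE 0.14). The nearest arrays of that probe were 0.01 log2 units apart, and the difference was about the size of its standard error. It was 0.06 without mock array 1 and 0.22 without mock array 2.

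*ATF5* (probe 204262), a bZIP factor related to ATF4 and under similar translational control, was also close between groups. Its signals were 0.436 and 0.555 in mock and 0.671 and 0.589 after knockdown, with means of 0.495 ± 0.0846 and 0.630 ± 0.0579 (SD, n = 2). The ratio was 1.27 and the log2 difference 0.35 (SE 0.18), and the latter was 0.18 without mock array 1 and 0.53 without mock array 2. When the signals of its gene ID, which the array shares with a *NUP62* probe, were averaged first, the log2 difference was 0.17.

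Among the effectors, the largest log2 difference was that of *SESN2* (probe 107292), a stress-inducible sestrin that senses leucine and restrains mTORC1. It read 3.96 and 5.75 in mock and 19.4 and 22.2 after knockdown. The means were 4.86 ± 1.27 and 20.8 ± 2.0 (SD, n = 2), a ratio of 4.28 and a log2 difference of 2.12 (SE 0.23). Although the mock arrays differed more from each other than the knockdown arrays on the log2 scale, the groups lay 1.75 log2 units apart at their nearest arrays.

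*CHAC1* (probe 186353), which encodes a glutathione-degrading enzyme, read 0.101 and 0.105 in mock and 0.422 and 0.436 after knockdown, so both replicate pairs were tight. Its means were 0.103 ± 0.00282 and 0.429 ± 0.0104 (SD, n = 2), with a ratio of 4.18 and a log2 difference of 2.06 (SE 0.13). Its S/N was as low as 7.92 on mock array 1, and under normexp background correction with an added offset of 50 the log2 difference was 0.96. The upstream window of *CHAC1* is one of those printed above with a C/EBP-ATF response element.

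*TRIB3* encodes a pseudokinase that binds ATF4 and AKT, and its 2 probes differed from each other. The brighter probe (113737) read 4.31 and 4.18 in mock and 15.9 and 16.9 after knockdown, with means of 4.24 ± 0.0930 and 16.4 ± 0.669 (SD, n = 2), a ratio of 3.87 and a log2 difference of 1.95 (SE 0.13). The dimmer probe (181896) read 0.556 and 0.320 in mock and 0.371 and 0.522 after knockdown, a ratio of 1.02 and a log2 difference of 0.06 (SE 0.34). Its S/N was between 11.09 and 18.33, and its groups overlapped, so on the 4 arrays this probe did not show the separation seen with the brighter probe. Why the *TRIB3* probes differ was not tested.

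*DDIT4*, also called REDD1, which restrains mTORC1 upstream of the TSC complex, was the last effector over 2-fold. Its probe (160257) read 2.01 and 2.83 in mock and 5.80 and 5.46 after knockdown, with means of 2.42 ± 0.576 and 5.63 ± 0.244 (SD, n = 2), a ratio of 2.33 and a log2 difference of 1.24 (SE 0.21). The gap between the nearest arrays was 0.95 log2 units, and without mock array 1 the log2 difference was 0.99, just under 2-fold.

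*PPP1R15A* and *VLDLR* were higher by less than 2-fold. *PPP1R15A*, also called GADD34, directs protein phosphatase 1 to eIF2 and so restores translation, and its probe (143553) read 2.95 and 3.18 in mock and 5.29 and 5.53 after knockdown. The ratio was 1.76 and the log2 difference 0.82 (SE 0.13), with a gap of 0.73 log2 units between the nearest arrays. *VLDLR*, a lipoprotein receptor under ATF4 control in stressed cells, read 0.723 and 0.865 in mock and 1.42 and 1.10 after knockdown on probe 110014. The *VLDLR* ratio was 1.58 and its log2 difference 0.66 (SE 0.20). It was 0.38 under normexp background correction.

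**Figure D2:**
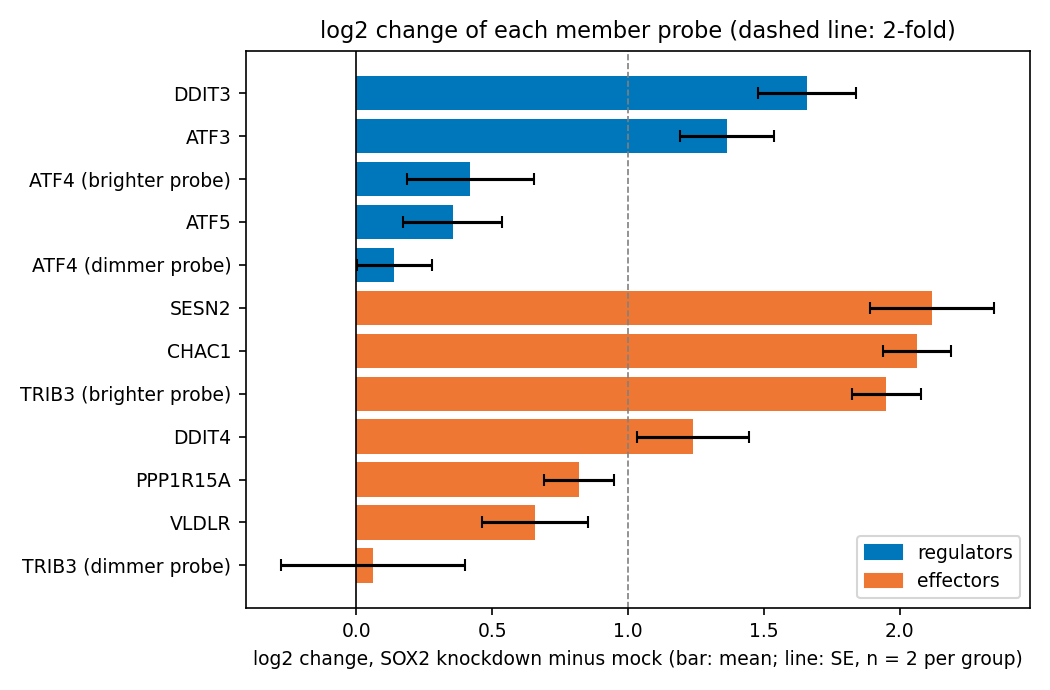
Log2 difference, *SOX2* knockdown minus mock, for each member probe, with regulators in blue and effectors in orange. Bars are means, black lines the moderated standard error of limma (2 arrays per group) and the dashed line 2-fold. The bars of *SESN2* (2.12), *CHAC1* (2.06), the brighter *TRIB3* probe (1.95), *DDIT3* (1.66), *ATF3* (1.36) and *DDIT4* (1.24) pass the line, and those of *ATF4* and *ATF5* do not.

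Taking the brighter probe of each gene, the median log2 difference was 0.89 over the 4 regulators, with a range of 0.35 to 1.66, and 1.59 over the 6 effectors, with a range of 0.66 to 2.12. The regulators' median was thus lower by 0.70 (-0.70 as regulators minus effectors), and the ranges overlapped. After normexp background correction the difference between these medians was -0.23. In order of log2 difference the genes ran from *SESN2*, *CHAC1* and *TRIB3*, which lay within a standard error of *SESN2*, through *DDIT3*, *ATF3* and *DDIT4* to *PPP1R15A*, *VLDLR*, *ATF4* and *ATF5*. Members are not replicates of a condition, and this comparison of regulators with effectors has no test.

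The members varied more between the mock arrays than between the knockdown arrays. The median absolute log2 difference between the mock arrays was 0.35 for the 12 member probes and 0.22 for all kept probes, and between the knockdown arrays it was 0.09 and 0.17. Mock array 2 read higher than mock array 1 for 9 of 12 member probes (75%), against 53.4% of all kept probes. On the knockdown arrays, replicate 2 read higher for 7 of 12 (58.3%), against 48.2%. The part of this mock array difference in the results was not tested beyond leaving out each array in turn.

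The nearest relatives of the effectors were set beside them, since several effectors belong to small families with a stress-inducible member and others. None of the 9 kept paralog probes was over 2-fold different in either direction, and none passed an adjusted p of 0.05 (limma, Benjamini-Hochberg over 21256 probes, where 0% of probes passed). Beside *TRIB3*, the pseudokinase genes *TRIB1* and *TRIB2* had log2 differences of -0.43 (SE 0.21) and -0.58 (SE 0.15). Beside *CHAC1*, its paralog *CHAC2* was at -0.01 (SE 0.13). Beside *SESN2*, the other sestrins were at 0.13 (SE 0.17, *SESN1*) and -0.81 (SE 0.12, adjusted p = 0.106, *SESN3*). *PPP1R15B*, the constitutive eIF2 phosphatase subunit, was at 0.27 (SE 0.14). *LRP8*, a receptor related to *VLDLR*, was at 0.41 (SE 0.15) on its brighter probe and at 0.63 (SE 0.12) on the other. *DDIT4L* and a second *TRIB2* probe were not kept. At an unadjusted limma p under 0.05, 1 of the 9 paralog probes was higher and 2 were lower, where 7.9% of all kept probes were higher and 9.16% lower. The differences between effectors and paralogs were not tested, because the effectors were chosen on this contrast.

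**Figure D3:**
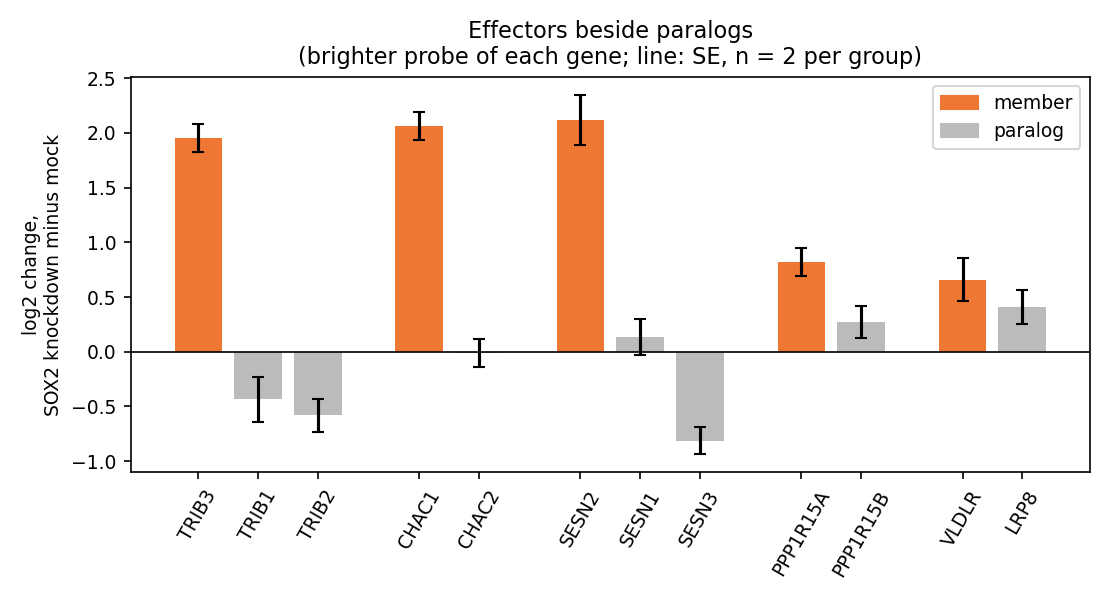
Log2 difference, *SOX2* knockdown minus mock, of 5 effectors (orange bars) beside paralogs (grey bars), with the brighter kept probe of each gene. Lines are the moderated standard error of limma (2 arrays per group). *TRIB3*, *CHAC1* and *SESN2* stand at 1.95 to 2.12, while their paralogs lie between -0.81 and 0.13.

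Further gene lists of the pathway were counted without the members, and together with the paralogs they held 146 genes. Of these, 142 were on the array, and 162 probes for 134 genes were kept. In direction, 101 of the 162 probes were higher and 61 lower, where 10593 of the 21256 kept probes were higher and 10663 lower. By limma, no listed probe had a Benjamini-Hochberg adjusted p under 0.05, and 0% of all kept probes had. At an unadjusted p under 0.05, 47 of the 162 probes were higher and 14 lower, where 7.9% of all kept probes were higher and 9.16% lower. At an adjusted p under 0.1, 8 were higher and 1 lower, where 0.757% of all kept probes were higher and 0.376% lower. Over 2-fold, 15 of the 162 were higher, 10 of them with an S/N over 3 on all 4 arrays, and 2 were lower, where the shares of all kept probes were 1.57% and 1.04%. These figures for all kept probes are the background for each list below.

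The list most like the effectors in kind, other ATF4 targets, had 44 kept probes of 36 genes. Of these, 37 were higher and 7 lower, and the median log2 difference was 0.56, where that of all kept probes was -0.00. Over 2-fold, 10 were higher and 1 lower, where the shares of all kept probes were 1.57% and 1.04%. Of the 10, 7 had an S/N over 3 on all 4 arrays, and the 1 lower probe had it on 2 arrays only. Both knockdown arrays lay above both mock arrays for 31 of the 44, against 21.2% of all kept probes. At an unadjusted p under 0.05, 24 were higher and 2 lower, against 7.9% and 9.16% of all kept probes. By limma with Benjamini-Hochberg adjustment, *CTH*, which makes cysteine from cystathionine, was 2.70-fold higher (log2 difference 1.44, SE 0.17, adjusted p = 0.0911). *GADD45A*, a growth arrest gene that p53 also drives, was 2.51-fold higher (1.34, SE 0.16, adjusted p = 0.0945). *ASNS*, asparagine synthetase and a classic gene of the amino acid response, was 2.50-fold higher on its brightest probe without other annotated genes (1.33, SE 0.14, adjusted p = 0.0833).

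The other bZIP factors, among them dimer partners of ATF4 and CHOP, had 27 kept probes, 23 higher and 4 lower, with a median log2 difference of 0.36. Of these, 5 were over 2-fold higher, against 1.57% of all kept probes, and 3 of the 5 had an S/N over 3 on all arrays. *CEBPG*, a C/EBP partner that binds amino acid response sites with ATF4, had means of 0.520 ± 0.0368 in mock and 1.37 ± 0.0570 after knockdown (SD, n = 2), a ratio of 2.64 (log2 difference 1.40, SE 0.14, limma adjusted p = 0.0816). *CEBPA* was 2.31-fold higher (1.20, SE 0.16, limma adjusted p = 0.0987). *XBP1*, the factor activated by the IRE1 arm of the unfolded protein response, was 2.24-fold higher, from 6.15 to 13.8 (1.17, SE 0.15, limma adjusted p = 0.0962).

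The lists for the steps upstream of ATF4 and for the parallel ER branch had medians near 0. These are transcript levels, and neither kinase activity nor phosphorylation of eIF2 was measured. The eIF2 list, of kinases, translation factor subunits, phosphatase genes and other regulators, had 10 probes higher and 10 lower of 20 kept, none over 2-fold, and a median of -0.02. Its largest difference was that of 1 *EIF2S2* probe, for the beta subunit of eIF2, at 0.54 (SE 0.16, limma adjusted p = 0.228). The other *EIF2S2* probes were at 0.38, 0.29 and 0.29. The 4 eIF2 kinase genes, chosen after their values were seen, all lay lower on both knockdown arrays than on both mock arrays, by -0.12 (*EIF2AK4*) to -0.25 (*EIF2AK2*) in log2 difference, with a smallest limma adjusted p of 0.423. Of all kept probes, 25.8% lay lower on both knockdown arrays in this way. The only *EIF2AK1* probe is annotated to *JTV1* as well, so its signal is not of the kinase gene alone. The ER folding list, chaperones and sensors of the unfolded protein response, had 9 probes higher and 17 lower of 26 and a median of -0.04. *XBP1*, which this list also holds, was its only probe over 2-fold. Differences between lists were not tested.

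The lists of CHOP targets, mTORC1 regulators and p53 targets showed few large differences. The CHOP target list was short, with 6 genes, and held none of the members. It had 6 probes higher and 3 lower of 9 kept, with a median of 0.09, none over 2-fold higher and 1 over 2-fold lower. Its largest with an S/N over 3 on all arrays was *PMAIP1*, a pro-apoptotic BH3-only gene also called NOXA, at 0.63 (SE 0.15, limma adjusted p = 0.163). The probe over 2-fold lower, looked up after its value was seen, was for *BCL2*. It had an S/N of 2.17 and 2.2 after knockdown, and another *BCL2* probe was at 0.15. The regulators of mTORC1, the kinase complex that SESN2 and DDIT4 restrain, had 8 probes higher and 13 lower of 21, a median of -0.09 and none over 2-fold. *SEH1L*, a nucleoporin that is also a subunit of the GATOR2 complex, differed most, at -0.63 (SE 0.14, limma adjusted p = 0.15). The p53 target list was counted because p53 shares targets with the ATF4 pathway. It also held the members *SESN2* and *DDIT4*, both over 2-fold higher, which were left out of its counts. Without them it had 14 probes higher and 4 lower of 18, with a median of 0.18. *GADD45A* was the only one of these over 2-fold.

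**Figure D4:**
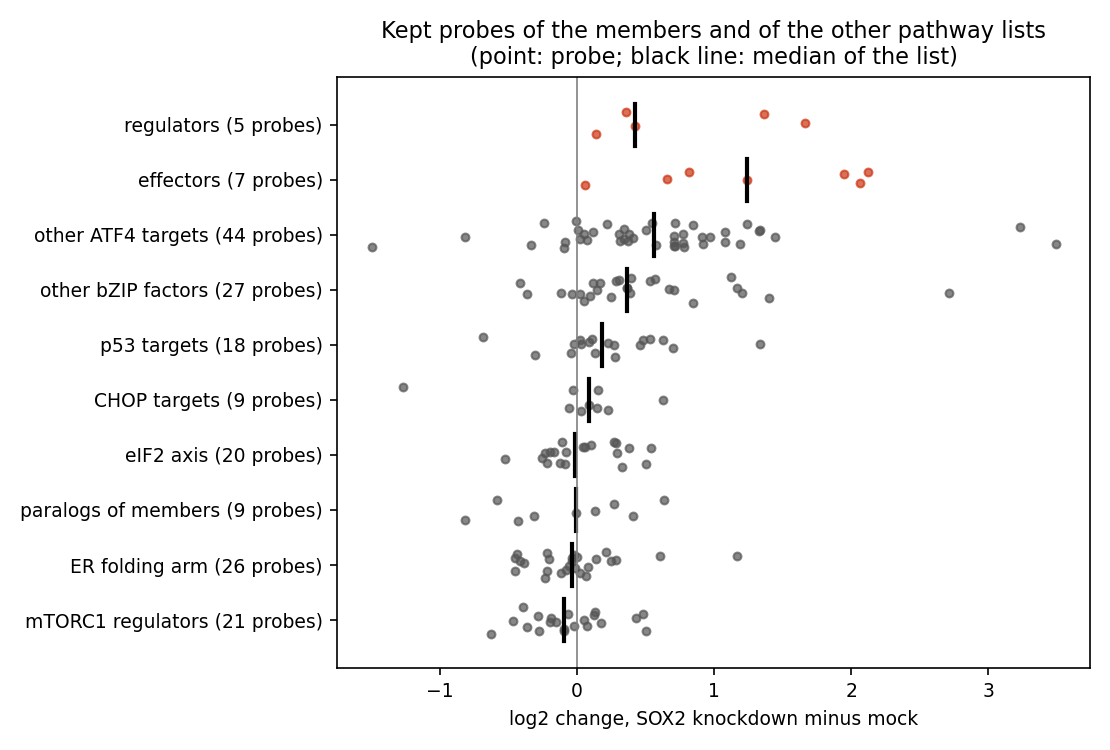
Log2 difference, *SOX2* knockdown minus mock, of every kept probe of the regulators and effectors (red points) and of the other pathway lists (grey points), with a black line at each list's median over probes. The medians lie at 0.42 for the 5 regulator probes, 1.24 for the 7 effector probes, 0.56 for other ATF4 targets and 0.36 for other bZIP factors, and between -0.09 and 0.18 for the remaining lists.

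Outside the members, kept probes with a single gene symbol were ranked by how near their pattern over the 4 arrays lay to the effectors. The measure was Euclidean distance between centred log2 signals and the mean of the 7 effector probes. Genes of the other lists were not left out. The effector mean stood at -0.68 and -0.59 in mock and at 0.61 and 0.67 after knockdown. The nearest were *CST7*, a cysteine protease inhibitor of immune cells, at a distance of 0.0691, *SMPDL3B*, a phosphodiesterase of the sphingomyelinase family, at 0.0760, and *ADRA1B*, an adrenergic receptor, at 0.0822. Their own log2 differences were 1.34, 1.27 and 1.35. With 4 arrays in 2 groups, likeness of this kind says little beyond the size of the group difference.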

How the data were processed

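Total RNA (250 ng per labelling) of LN229 cells was read on 4 Applied Biosystems arrays, 2 per group. The scanner files deposited by the authors give a linear intensity for each probe, normalized by the scanner software, and a signal-to-noise score. The deposited flags have no stated meaning in the sources used here. The authors' second table holds a linear ratio, the scanner signal times a constant per array divided by the larger of 10 and the probe's median, floored at 0.01. This rule gave 100% of its values within 1%. Its column medians were 0.102, and 81% of probes were divided by 10. It was used as an alternative. The version of the scanner software is not given in those sources. The number of arrays limits the precision.

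Groups were taken from the labels. Control features and 210 probes with a flag of 5000 or more were left out. Signals were divided by the array's 75th percentile, floored at 0.01 and taken to log2. Probes with an S/N over 3 on both arrays of a group were tested with limma 3.58.1 (lmFit, eBayes; R 4.3.3) and Benjamini-Hochberg adjustment over 21256 probes, and folds are ratios of linear means. The script was tested on simulated data. The members and lists were chosen with earlier results of these data known. Probes named from lists had an S/N over 3 on all arrays and were over 2-fold, at most 3 per direction, or else the largest; all members, their paralogs, *SOX2* and the 3 nearest patterns were also named, except that 1 paralog is counted in its list but not reported here by name. Gene names are those of the array, which are old. RefSeq promoters came from GRCh38.p14. Alternatives covered scaling, signal column, background (normexp with an added offset of 50), floor, S/N and flag filters, averaging by gene ID, fold, variance model, replicate block and leaving out each array.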

Additional observations from a re-analysis of the deposited data

How the results depend on the processing

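Of 176 member values under 15 alternatives, 167 moved by less than the replicate SD, 6 moved further and 3 changed sign. All 3 were of the dimmer *TRIB3* probe, at -0.028 under normexp and at -0.34 to 0.46 when each array was left out in turn, and the cause was not tested. The floor and S/N alternatives left every member value unchanged, since all member probes lay above each floor and passed each S/N filter. Leaving out an array moves a value only by part of the difference between replicates, so it could hardly pass the replicate SD. The count of 167 includes these alternatives and says little about them. The number of member probes over 2-fold higher was 6, and 5 under normexp, 5 with flagged spots left out (which drops *ATF3* and the brighter *ATF4* probe), 5 without mock array 1, 8 at 1.5-fold and 4 at 3-fold. The regulator minus effector median was -0.23 under normexp with its offset of 50. There *CHAC1*, at 0.96, and *DDIT4*, at 1.21, were the middle effectors, while *CHAC1* was at 2.06 without this correction. Why *CHAC1* differed was not tested. For the other pathway probes, 0 passed an adjusted p of 0.05 in the limma fit (61 at an unadjusted p under 0.05), 17 passed with scaling by the array median (15 higher, 2 lower), 17 with the authors' ratio table, an alternative added after seeing the data (15 higher, 2 lower), and 11 with a variance trend (all higher). With the replicate block 0 passed, and 36 did at an unadjusted p under 0.05. Same-numbered arrays deviated in opposite directions (correlation -0.484 over 21256 probes), and a crossed replicate block, chosen after seeing the data, gave 0, and 74 unadjusted. Among all kept probes 554 were over 2-fold different, and 234 under normexp, 363 with a floor of 0.05, 302 with an S/N over 3 on all 4 arrays, 1373 with no S/N filter, 2234 at 1.5-fold, 119 at 3-fold and 782 to 1192 when each array was left out, 1192 being without mock array 1. The median, ratio table and trend counts for all probes were 826, 758 and 287, where the limma fit gave 0 (3626 at an unadjusted p under 0.05). With 2 arrays per group, signals near background limit the smallest values.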

Other observations

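Several listed ATF4 pathway genes had probes that differed from each other in log2 difference, and those named here were chosen after their values were seen. *ASNS* had log2 differences of 1.33 and 1.08 on the probes annotated to it alone and 0.08 on a probe annotated to other genes as well. *AARS*, an aminoacyl-tRNA synthetase gene, was at 0.55 on 1 probe and at -0.34 on the other. *GPT2*, an alanine aminotransferase gene, was at 0.97 on 1 probe, and its other probe read 0.0281 and 0.0334 in mock and, after knockdown, the floor of 0.01 and 0.0117, where its S/N was 0.94 and 1.09. Both *FOSL2* probes read higher after knockdown on each array. The gene was at 0.57 on a probe with an S/N over 3 on all arrays, and its other probe read 0.0297 and 0.0116 in mock, with an S/N of 2.46 and 0.7, and 0.134 and 0.111 after knockdown. *STC2*, a stress-induced secreted glycoprotein, was at 0.12 on 1 probe. Another *STC2* probe read 0.0842 and 0.0174 in mock, with an S/N of 7.22 and 0.74, and 0.318 and 0.584 after knockdown. The remaining *STC2* probe was not kept. *INHBE*, an activin subunit gene induced by ER stress, had 1 probe, which was not above background in mock (S/N of 0.86 and 0.9) and read 0.386 and 0.341 after knockdown, with an S/N of 12.73 and 13.07.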
